A study of Caenorhabditis elegans with 12 samples.

Results

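The cuticle collagen genes are the genes for the collagens that build the outer coat of the nematode Caenorhabditis elegans. They were taken by name from the platform annotation: every gene called col-N, and 19 genes whose mutants gave them dpy, rol, sqt, bli, lon or ram names. Of these, 145 genes were measured by a probe set with a single gene symbol, out of 17118 such genes in all: 128 col genes and 17 of the 19 others. The genes dpy-10 and ram-4 were not analysed here under those names. Each gene was represented by its brightest probe set, the group of short oligonucleotides that reads its transcript, over the 12 arrays.

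The arrays, of an Affymetrix design, hold total RNA of whole synchronized adults of strain N2 Bristol, the standard wild type. All animals were grown at 23 °C for 2.5 days after embryos had been plated, and then moved to 17 °C. Of the arrays, 4 hold animals from immediately ahead of the move (0 h), 2 hold animals from 1 h later, 2 from 2 h later and 4 from 4 h later. Animals left at 23 °C over those hours were not among the samples, so temperature, elapsed time and handling cannot be told apart. Whether replicates were separate cultures is not stated in the labels, so p-values describe the spread among these samples, which may be technical. In RNA of whole animals, a smaller share of RNA from the epidermis and less collagen RNA per epidermal cell cannot be told apart.

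Cuticle collagens are short proteins with Gly-X-Y repeats that the epidermis secretes. Their chains are hydroxylated on proline and assembled into trimers in the endoplasmic reticulum, trimmed by proteases at the cell surface, and cross-linked in the cuticle. Most of the genes are switched on in waves before each moult, and some only at a given stage, such as col-19 in the adult. Mutations in single collagen genes can make the body short (dpy), long (lon), helically twisted (rol), blistered (bli) or squat (sqt).

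Values are the deposited log2 signals, and changes are differences of log2 signal with 0 h as reference unless stated. Array medians lay between 5.50 and 5.57, and Pearson's r between arrays over all probe sets was 0.994 to 0.998. Signals of different probe sets are not on a common scale, so no gene's level is set against another's. Without scanner files no measure of background was at hand, and precision is limited by how few arrays there are. Of the 145 genes, 4 had a mean signal below the lower quartile of all values (3.59) and 92 lay above their median (5.54). The adult collagen gene col-19 read 10.41 to 10.85 in all arrays, and the yolk gene vit-2 read 12.50 to 12.74. With no array of another stage, these values cannot test the labelled adult stage.

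After 4 h at 17 °C most cuticle collagen transcripts lay slightly below their level at 0 h, and 2 genes, col-158 and col-118, fell past the test. The shift was small: the median change was -0.105 log2 units, against -0.0142 over all genes, and 139 of the 145 changes were smaller than 0.3 in size. In limma with Benjamini-Hochberg adjustment over all probe sets (threshold 0.05, called below), 2 of 145 fell, 0 rose and 143 did not pass. Of all probe sets, 0.962% were called lower and 1.33% higher, so the share of collagens called lower was close to the background. At an unadjusted p under 0.05 there were 20 collagens lower (13.8%) and 0 higher. Of all probe sets 12.7% reached it in either direction, 6.35% lower and 6.32% higher. Changes below 0 were seen for 127 collagens (87.6%), against 53.1% of all probe sets.

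The direction was the same in each of the 4 arrays at 4 h. After subtracting each gene's mean over the 12 arrays, the collagen medians were -0.0495, -0.0934, -0.0442 and -0.0986 in the arrays of 4 h. They were -0.000950, 0.0458, 0.0827 and 0.0248 in those of 0 h. The 4 h medians lay below all of those at 0 h, while the medians over all genes overlapped, at -0.0170 to 0.0105 in the 4 h arrays and -0.00374 to 0.0173 in the 0 h arrays. The arrays of 1 h (0.0932 and -0.0175) and 2 h (0.00637 and 0.0729) spread over the range of 0 h and a little beyond. The lowest of the 12 arrays was one of 4 h for 95 collagens (65.5%), against 33.9% of all probe sets, and one of 0 h for 19 (29% of all probe sets). The highest was one of 4 h for 18 (32.2% of all probe sets) and one of 0 h for 58 (32.9%).

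**Figure D1:**
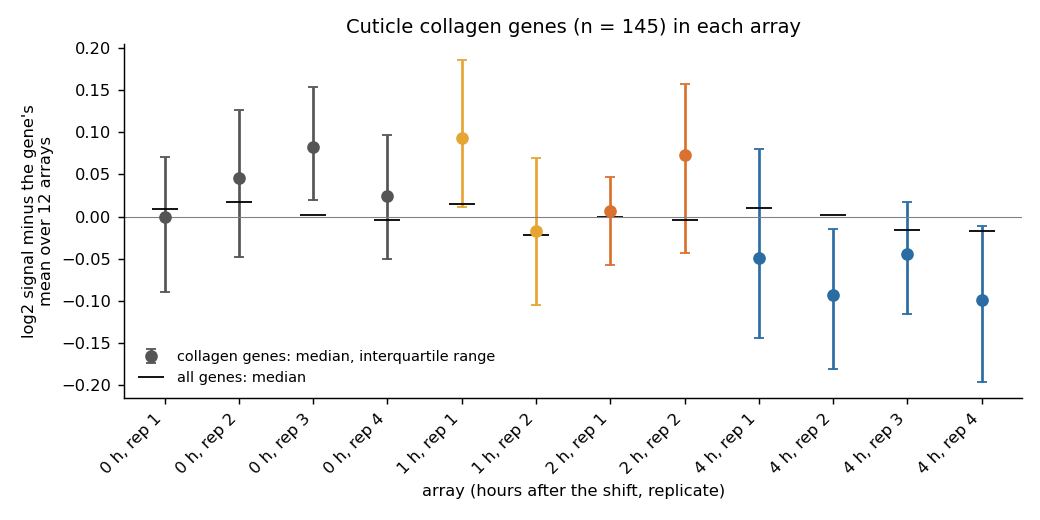
Median of the 145 cuticle collagen genes in each of the 12 arrays (points; bars span the interquartile range over genes), as log2 signal minus each gene's mean over the arrays, in order of time. Black dashes are the medians over all 17118 genes. The 4 arrays of 4 h, between -0.0986 and -0.0442, lie below the other 8.

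All 4 arrays at 4 h lay below all 4 at 0 h for 14 collagens (9.66%), against 4.54% of all probe sets, and above them for 0, against 4.61%. Since arrays sharing a replicate number varied alike at 4 h and 0 h, the differences can be taken pair by pair. The median collagen difference was -0.0289, -0.126, -0.136 and -0.109 in replicates 1, 2, 3 and 4. In replicate 1, where the difference was smallest, 79 collagens were lower at 4 h, and in each of the others at least 109 were. Over all genes these medians were 0.00464, -0.0142, -0.0158 and -0.0186. In 48 collagens (33.1%) all 4 pairs were lower at 4 h, against 14.2% of all probe sets, and in 3 none was.

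**Figure D2:**
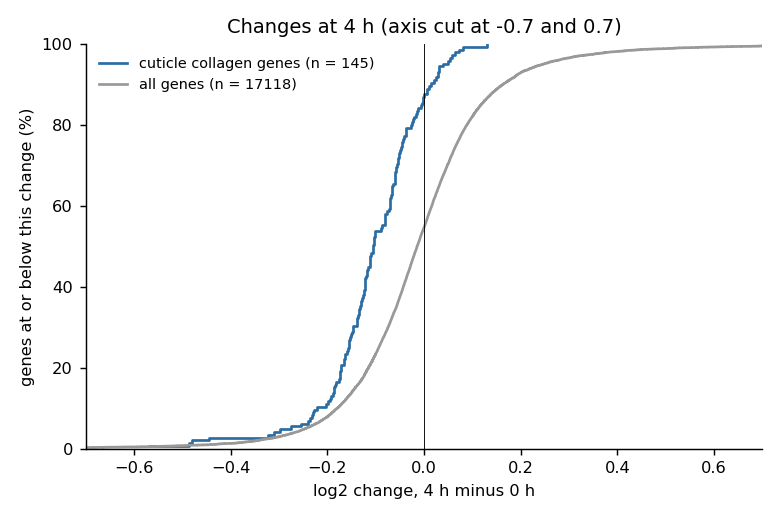
Cumulative share of genes (vertical axis, percent) at or below each log2 change of 4 h minus 0 h (horizontal axis) for the 145 collagen genes and for all 17118 genes. The collagen curve lies to the left of the other over most of its range and ends at 0.13, its largest rise.

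The shift was not limited to genes of low signal. Among the 92 collagens above the median signal, 84 lay below 0 with a median of -0.118, while the 8242 genes of that range had a median of 0.000587 and 49.8% below 0. Among the 49 between the lower quartile and the median, 39 lay below 0 with a median of -0.0651, against -0.0340 and 59.3% below 0 for the 4385 genes of that range. The 4 dimmest collagens all lay below 0, as did 59% of the 4491 genes below the lower quartile.

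The largest fall past the test was that of col-158. It read 6.70, 6.45, 6.60 and 6.58 at 4 h, against 7.09, 7.02, 6.92 and 7.08 at 0 h. The groups did not overlap, and the mean was 1.36-fold lower at 4 h (6.58 ± 0.102 against 7.03 ± 0.0745, SD, n = 4 each; log2 change -0.44, SE 0.0732, limma adjusted p = 0.00569). The 1 h arrays (6.93 and 6.90) and 2 h arrays (7.06 and 6.93) lay within or next to the range of 0 h. Between 4 h and 2 h the difference was -0.41 and did not pass in limma (adjusted p = 0.16). Within replicate numbers 1 to 4, 4 h minus 0 h was -0.39, -0.58, -0.32 and -0.50, lower in 4 of 4. The gene was the only collagen called by the moderated F test over the 3 times (adjusted p = 0.0202), which called 1.77% of all probe sets and 1 of the 145 collagens. That F-test call ended without replicate 1, 2 or 4 of 0 h, or without replicate 2, 3 or 4 of 4 h, while the call at 4 h held without each of the 12 arrays.

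The gene col-118 was also lower. It read 7.69, 7.83, 7.70 and 7.82 at 4 h, against 7.998, 8.14, 8.07 and 8.09 at 0 h. The groups did not overlap, and the change was -0.31 (SE 0.0729, limma adjusted p = 0.0443), a 1.24-fold difference. Its 1 h values were 8.15 and 7.96 and its 2 h values 7.84 and 7.97, so the means stood at 8.07, 8.05, 7.91 and 7.76 at 0, 1, 2 and 4 h. Leaving out an array of either time ended the call in 8 of 8 cases (limma adjusted p 0.0608 to 0.133), as did dropping cross-hybridising probe sets from the fit (0.0538), and so did a block for the replicate number over the 12 arrays (adjusted p = 0.0630). The same block over the 8 arrays of 0 h and 4 h kept it (adjusted p = 0.0384).

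The change of col-139 was larger but less even. It read 8.22, 8.01, 7.97 and 8.16 at 4 h, against 8.43, 8.48, 8.46 and 8.93 at 0 h, where replicate 4 stood above the others. The change of -0.49 (SE 0.119) missed the threshold in limma (adjusted p = 0.0532). A block for the replicate number took it past the threshold, over the 12 arrays (adjusted p = 0.0448) and over the 8 of 0 h and 4 h (0.0495). Without a block, leaving out any single array of 0 h or 4 h kept it uncalled. No probe set of col-139 remained once cross-hybridising ones were dropped.

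The other collagens with the smallest p at 4 h were all lower and none passed. They were col-132 (-0.23, adjusted p = 0.173), col-159 (-0.22), col-124 (-0.25), col-19 (-0.23), col-98 (-0.24), col-71 (-0.17) and col-163 (-0.28, adjusted p = 0.276). The level of col-163, at 2.17 to 2.28 at 4 h and 2.30 to 2.63 at 0 h, was near the lowest signals of the arrays. The gene col-71 was among the 3 steadiest collagens, with col-88 and col-125, by residual standard deviation (0.0508, 0.0524 and 0.0538 in the order named). In all 3 the 4 h arrays lay below those of 0 h, with changes of -0.17, -0.13 and -0.13. The highest changes at 4 h were those of col-56 (0.13), col-177 (0.08) and col-95 (0.07), none past the test.

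Stage markers within the family did not pass. The adult collagen gene col-19 read 10.45, 10.50, 10.41 and 10.64 at 4 h, against 10.63, 10.85, 10.70 and 10.73 at 0 h. The groups overlapped by a narrow margin, and the change of -0.23 (95% interval -0.41 to -0.05) did not pass over all probe sets (limma adjusted p = 0.231). The gene col-2, known from the dauer larva, a resting stage, changed by -0.12 and col-40 by 0.03. The gene col-119 stood at 13.08 to 13.25 at 4 h and 13.06 to 13.23 at 0 h, and changed by 0.03 (95% interval -0.12 to 0.18). The gene col-120, whose forced expression lengthens life in C. elegans, changed by -0.06, col-12 by -0.13 and col-17 by -0.06. The gene col-99 encodes a membrane-bound collagen of neurons rather than a cuticle protein, though its name puts it in the family, and its change was -0.00344. These 8 genes had adjusted p-values from 0.231 to 0.995.

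During the first 2 h no collagen passed in the main fit (a mean for each time, no block). At 2 h col-95 passed without the dimmer 50% of probe sets. With trend and robust variance, or with a replicate block, both col-95 and col-122 passed at 2 h. At 1 h 0 of 145 were called in limma, as were 0 of all probe sets (0%), and 4 collagens, all higher, had an unadjusted p under 0.05, against 6.42% of all probe sets in either direction and 3.56% higher. At 2 h 0 of 145 were called, against 0.967% of all probe sets, and 6 had an unadjusted p under 0.05, against 12.8%. Of these, 5 were higher (6.6% of all probe sets) and 1 lower (6.16%). The median collagen change was 0.000646 at 1 h and -0.0127 at 2 h, against -0.00887 and -0.0129 over all genes. Single arrays set the sign of both: the 1 h median was -0.0562 without replicate 1 of 1 h, and the 2 h median 0.0262 without replicate 1 of 2 h and 0.00555 without replicate 3 of 0 h. Below 0 lay 71 collagens at 1 h (52.1% of all probe sets) and 79 at 2 h (52.9%). For 4 h minus 2 h the median was -0.103, with 114 collagens lower at 4 h than at 2 h against 50.7% of all probe sets. Without replicate 2 of 2 h it was -0.0649. In the same comparison the median of 8 body wall muscle markers was -0.272, with 8 below 0, and that of 5 pharynx markers -0.219, with 5 below 0. Their part in the collagen values was not tested. For this difference 0 collagens were called in limma (0.0577% of all probe sets). At an unadjusted p under 0.05 there were 14, all lower at 4 h, against 10.7% of all probe sets in either direction and 5.44% lower.

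The genes col-122, col-95 and col-143 read higher at 1 h and 2 h than at 0 h and 4 h. These were found by their values: they were the 3 of 145 collagens (2.07%) in which all 4 arrays of 1 h and 2 h lay above all 8 of 0 h and 4 h, against 0.599% of all probe sets. The opposite order was seen in 0 collagens (0.852% of all probe sets). The gene col-122 read 9.23, 9.42, 9.51 and 9.54 at 0 h, 9.77 and 9.75 at 1 h, 9.82 and 10.00 at 2 h, and 9.17, 9.32, 9.52 and 9.59 at 4 h. Its change at 2 h was 0.48 (SE 0.124, 95% interval 0.22 to 0.75), and it missed the threshold in limma (adjusted p = 0.0987). The gene col-95 read 10.89 to 11.10 at 0 h, 11.23 and 11.30 at 1 h, 11.29 and 11.51 at 2 h, and 10.97 to 11.17 at 4 h. Its change at 2 h was 0.40 (SE 0.0961, adjusted p = 0.0837). The gene col-143 changed by 0.26 at 1 h and 0.27 at 2 h, with 10.35 and 10.38, then 10.30 and 10.47, against 9.87 to 10.23 at 0 h. A block for the replicate number over the 12 arrays took col-122 (0.61, limma adjusted p = 0.0111) and col-95 (0.47, adjusted p = 0.0218) past the threshold at 2 h, and col-122 for 4 h minus 2 h. That block pairs 1 h and 2 h arrays with those of 0 h by number. Pearson's r of their deviations was -0.075 to 0.00773 over all probe sets, so the block values rest on a pairing that these did not show. At 4 h the arrays of all 3 genes overlapped those of 0 h, with changes of -0.03, 0.07 and -0.04. The sample list gives the 1 h and 2 h arrays after all those of 0 h and 4 h. Whether they were processed as a separate set was not tested. Such a difference and time cannot be told apart for these 3 genes.

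**Figure D3:**
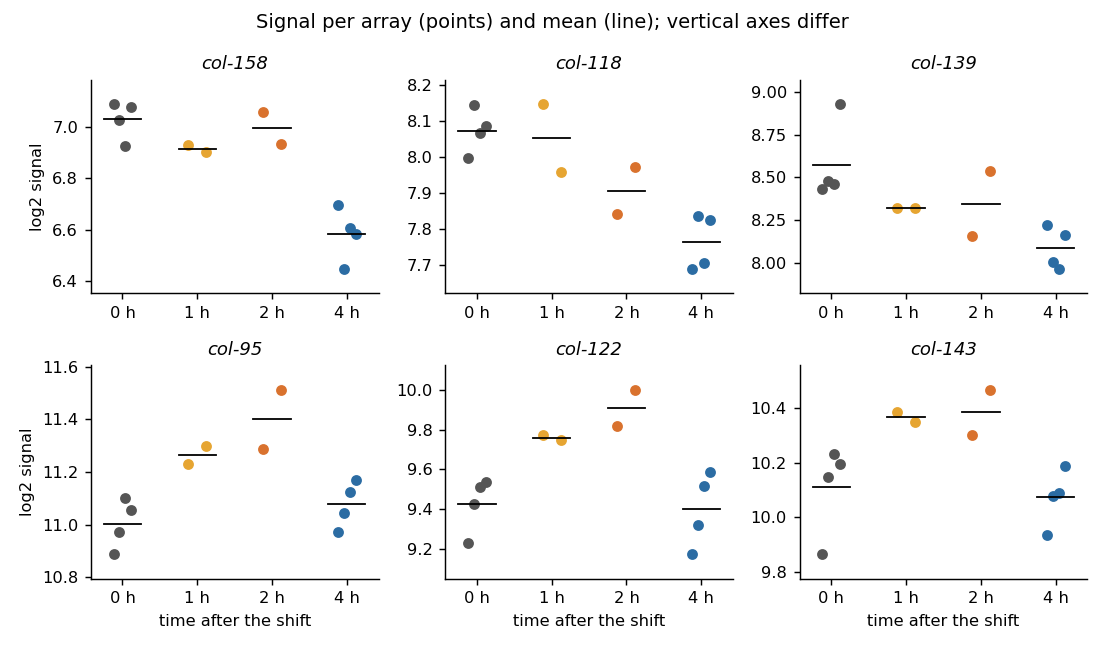
Log2 signal in each array (points) and mean (line) at 0, 1, 2 and 4 h for col-158, col-118 and col-139 (top) and col-95, col-122 and col-143 (bottom). In the top row the 4 h points lie below those of 0 h, and in the bottom row the points of 1 h and 2 h lie above those of 0 h and 4 h.

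With 2 arrays at 2 h, single arrays weighed on these values. Without replicate 2 of 2 h, the array in which col-122 reached 10.00 and col-95 11.51, the adjusted p-values were 0.761 and 0.769. At 2 h col-115 had 5.71 and 5.42, against 4.96 to 5.24 at 0 h (0.43, limma adjusted p = 0.168). The other collagens with an unadjusted p under 0.05 in the first hours were col-61 at 1 h (0.28), and col-101 (0.30) and col-186 (-0.24) at 2 h. None of these passed.

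No collagen known from body shape mutants passed at any time. Of the 17 measured, 0 were called at any time, close to the 0%, 0.967% and 2.3% of all probe sets called at 1 h, 2 h and 4 h. At 4 h 15 lay below 0 (53.1% of all probe sets) with a median of -0.0815. An unadjusted p under 0.05 was seen there for 1 (dpy-8), against 12.7% of all probe sets. The 128 col genes had 112 below 0 and a median of -0.105. The lowest adjusted p-values of the 17 were 0.839 at 1 h, 0.396 at 2 h and 0.28 at 4 h.

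The furrow collagens dpy-2, dpy-3, dpy-7, dpy-8 and dpy-9 lie in the circular grooves of the cuticle, and loss of several of them switches on osmotic, detoxification and antimicrobial genes in C. elegans. At 4 h 3 of 5 lay below 0, with a median of -0.0369. The gene dpy-8 read 3.67, 3.71, 3.95 and 3.96 at 4 h, against 4.11, 4.22, 4.00 and 4.14 at 0 h. The groups did not overlap, though their nearest arrays lay close, and the change of -0.30 (SE 0.116) did not pass (limma adjusted p = 0.28). The others changed by 0.01 (dpy-2), -0.08 (dpy-3), -0.04 (dpy-7) and 0.01 (dpy-9). For dpy-7 the 95% interval was -0.24 to 0.16.

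None of the other shape collagens passed. The annular collagen genes dpy-5 and dpy-13, needed for normal body length, changed by -0.07 and -0.06 at 4 h. The genes sqt-3 and dpy-17, whose products act together in early body elongation, changed by -0.08 and -0.12. The roller genes rol-6 and rol-8 changed by -0.16 and -0.07, and the squat genes sqt-1 and sqt-2 by -0.12 each. The gene lon-3, whose loss makes a longer body, changed by -0.17, and dpy-14 by -0.48 with a wide spread. The strut collagens bli-1 and bli-2, which form the columns between the cuticle layers of the adult, changed by -0.05 and -0.11. All 10 of the non-furrow, non-strut genes lay below 0 (median -0.12), and adjusted p-values ran from 0.499 to 0.84.

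**Figure D4:**
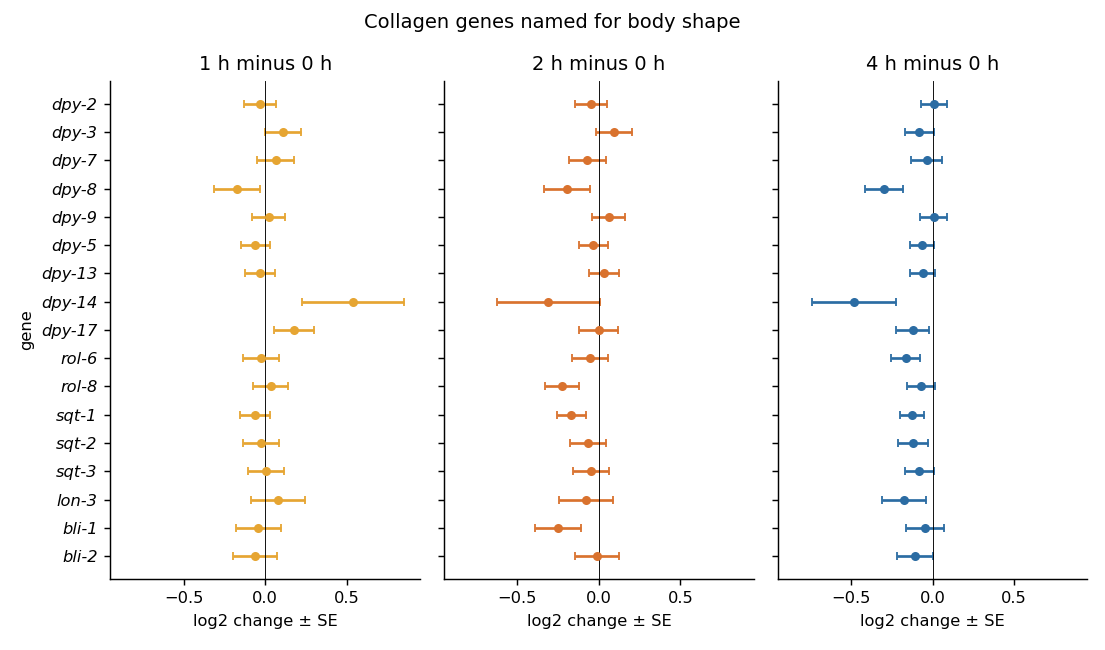
Log2 change (points) with its standard error (bars) of the 17 collagen genes with dpy, rol, sqt, lon and bli names at 1, 2 and 4 h relative to 0 h. At 4 h, 15 of 17 points lie left of 0, and dpy-14 has the widest bars at every time.

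A few members varied widely between arrays of the same time. Over the family the median residual standard deviation was 0.128, against 0.137 over all genes, and the 5 highest belonged to col-129 (0.629), dpy-14 (0.453), col-38 (0.347), col-69 (0.268) and col-58 (0.254). The gene col-129 read 7.34, 6.29, 7.06 and 7.43 at 4 h, against 7.32, 7.33, 7.24 and 8.49 at 0 h, and its change of -0.57 was within that spread (limma adjusted p = 0.59). It was the largest change of the family in size. The gene dpy-14 read 5.39, 6.82, 6.03 and 6.31 at 4 h, against 6.26, 6.62, 6.72 and 6.88 at 0 h, and changed by -0.48 (adjusted p = 0.499). At 1 h it read 7.04 and 7.28, and at 2 h 5.90 and 6.72. Replicate 1 gave the lower of the readings of dpy-14 at each of the 4 times.

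The gene col-38 differed by replicate number at 0 h and 4 h. It read 7.66, 6.79, 6.89 and 6.94 at 4 h, against 7.62, 6.91, 6.88 and 6.89 at 0 h. Replicate 1 was the high one at both times, while the change was -0.01 (limma adjusted p = 0.995). At 1 h replicate 1 was also the higher (7.15 against 6.77 in replicate 2), but at 2 h it was not (6.81 against 6.94). For lon-3 the order at 0 h was the reverse: replicate 1 read 5.97 against 6.43 to 6.47 in the others, and at 4 h it read 6.27, 6.27, 6.06 and 6.02.

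**Figure D5:**
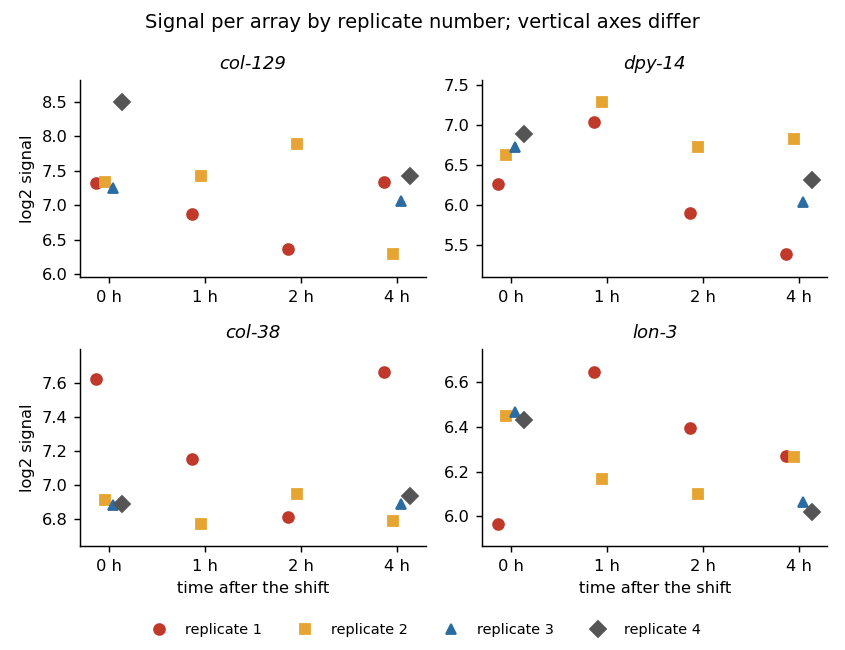
Log2 signal of col-129, dpy-14, col-38 and lon-3 in each array by time, with a marker for each replicate number. Replicate 1 (red circles) lies above the others for col-38 at 0 h and 4 h, and below them for lon-3 at 0 h.

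Deviations from the time means were shared between same-numbered arrays across the family. Over the 145 collagens, Pearson's r of these deviations between 4 h and 0 h arrays was 0.227 to 0.461 for the 4 same-numbered pairs and -0.406 to 0.104 for the 12 others. Over all probe sets it was 0.169 to 0.314 and -0.29 to 0.147. There, differently numbered pairs within replicates 1 and 2 (0.128 and 0.091) and within 3 and 4 (0.147 and 0.0362) lay above 0. Pairs across these groups ran from -0.29 to -0.122. Over the collagens the pairs within the groups had both signs (-0.15 and -0.0557, then 0.104 and 0.0446). The points are genes that share the arrays and their labelling, so these are descriptions. The mean correlation between 2 collagens, over residuals of the 12 arrays, was 0.105, against 0.0106 between 2 genes of the whole set. It was not particular to collagens. Over the other gene lists used here it ran from -0.0588 (5 pharynx markers) to 0.635 (5 yolk genes), with 0.110 for collagen folding and trimming and 0.107 for hypodermis.

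A second probe set existed for 20 of the collagens. At 4 h the 2 readings had the same sign in 14 and both lay below 0 in 12, with a median difference of 0.0434 between them. The brighter probe set of col-149 changed by -0.23 (limma adjusted p = 0.373) and the dimmer by -0.49 (adjusted p = 0.0343), so that gene was called by the probe set that does not stand for it. For col-160 the 2 readings were -0.17 and -0.18, and for col-93 -0.12 and -0.08. The widest gap was that of col-56, with 0.13 and -0.19. Another 17 probe sets listed several collagen genes each, 14 with 2 genes and 3 with 3. They were not members. At 4 h 16 of them lay below 0, with a median of -0.102, and 0 were called in limma (adjusted p 0.316 to 0.966), against 2.3% of all probe sets.

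Collagens are close relatives, and a probe set can read several of them. Of the 145, 35 stood by a probe set with the suffix s, shared by several transcripts, and 23 by one with the suffix x, which may cross-hybridise. The medians at 4 h were -0.104 and -0.117 for these, and -0.101 for the 87 others. In the WBcel235 gene table, which matched all 145 by gene identifier, collagen genes stood next to each other in 20 runs of up to 5 genes. The 29 members in such runs had a median change of -0.0807 at 4 h, with 26 below 0, against -0.106 for the 116 members outside them. Neighbours had like values in some runs, such as col-149 (-0.23) and col-150 (-0.24), col-159 (-0.22) and col-160 (-0.17), and col-141 (-0.16) and col-142 (-0.19). They differed in others, such as dpy-13 (-0.06) and col-34 (-0.19). The likeness of col-149 and col-150 depends on the probe set, since their second, dimmer probe sets changed by -0.49 and 0.04.

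Genes that process collagens did not pass. Of 19 measured genes of folding and trimming, 0 were called at 4 h (2.3% of all probe sets), 13 lay below 0 and the median was -0.0168. The prolyl 4-hydroxylase genes dpy-18 and phy-2 changed by 0.01 and 0.09, and pdi-2, their partner subunit, by -0.17 (limma adjusted p = 0.362). The furin-like protease gene bli-4 changed by -0.10, and dpy-31, a metalloprotease that trims SQT-3, by -0.03. Hsp-3, a chaperone of the endoplasmic reticulum, had the smallest p of this list (-0.19, adjusted p = 0.193). Of 11 cross-linking genes 0 were called. The dual oxidase gene bli-3, which makes the oxidant for tyrosine cross-links, changed by -0.12, and tsp-15, a tetraspanin that works with it, by 0.43 (adjusted p = 0.0998). The gene mlt-3 of this list changed by -0.36 (adjusted p = 0.275).

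Among moulting genes and epidermal regulators, 1 of each was called, beside the 0.962% of all probe sets called lower and 1.33% called higher at 4 h. Of 19 moulting genes 1 fell, 0 rose and the median was -0.112. It was acn-1, which encodes a protein like angiotensin-converting enzyme and is needed for moulting, with 4.28, 4.67, 4.89 and 5.21 at 4 h, against 5.64, 5.64, 5.29 and 5.69 at 0 h (change -0.80, SE 0.159, limma adjusted p = 0.0173). Of 17 epidermal regulators 1 rose, 0 fell and the median was 0.113. It was bed-3, a zinc-finger gene of moulting and vulval development, with 5.68, 5.29, 5.36 and 5.55 at 4 h, against 4.95, 4.96, 4.65 and 4.55 at 0 h (change 0.69, SE 0.115, adjusted p = 0.00622). In both genes the groups did not overlap. The regulators lin-29, which switches on adult collagens (0.12), elt-3, an epidermal GATA factor gene (0.18), and nhr-23, a moulting receptor gene (0.05), did not pass. Of 11 genes of the DBL-1 body-size pathway 0 were called, with sma-10, a membrane protein gene of the pathway, at -0.52 (adjusted p = 0.0532) and sma-3, a Smad gene, at 0.26. The basement membrane collagen genes emb-9 (-0.04) and let-2 (0.04), made outside the cuticle, and cle-1 (-0.11) did not pass.

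Markers of the cells that a whole adult holds are given beside the collagen shift. Of 12 hypodermis markers 0 were called at 4 h (2.3% of all probe sets), 2 lay below 0 and the median was 0.0707. The per-array medians of this list were 0.0877, 0.00272, -0.0134 and -0.0314 at 4 h, against 0.0772, 0.0724, -0.0996 and -0.118 at 0 h, and the groups overlapped. Those of the 8 intestine markers did not overlap, at -0.00736, 0.0983, 0.109 and 0.125 at 4 h, against -0.150, -0.0902, -0.0138 and -0.0114 at 0 h. Medians of the change at 4 h were -0.0414 for 8 body wall muscle markers, -0.0545 for 5 of pharynx, 0.176 for 8 of intestine and -0.00433 for 8 of neurons. They were -0.0536 for 8 of sperm, 0.0177 for 8 of oocyte and germline and 0.00409 for 5 yolk genes. The only called markers were those of intestine (1 higher, pept-1, and 1 lower, vha-6) and sperm (1 lower, ssp-10). Their part in the collagen values was not tested.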

How the data were processed

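Per the submitters' processing notes, RMA was applied, and the deposited table holds log2 values, 1 per probe set and array. Base 2 is an inference from RMA and from a range of 1.51 to 14.4. The sources used here name no RMA version, filter or genome build. After sorting, no value of an array lay more than 0.11 from the mean of the 12, so their distributions nearly coincided. The platform annotation gave 1 symbol for 20766 of 22548 probe sets, several for 887 and none for 895.

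For this report, limma 3.58.1 (R 4.3.3; lmFit, then eBayes) was run on all probe sets and the 12 arrays with a mean for each time, which left 8 residual degrees of freedom beside 5.03 from the prior. Times with 2 arrays borrow their spread from the other groups. P-values are two-sided, with Benjamini-Hochberg adjustment across the 22548 probe sets. The model was tested on simulated data with independent noise for each probe set and array. Deviations shared by same-numbered arrays or between genes were not part of that simulation.

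Members, lists and comparisons were chosen with earlier results of these data known. The named members are the measured dpy, rol, sqt, bli and lon genes, a set list of col genes (9 of 14 measured), called members, and those with extreme p, change or residual standard deviation. Some genes were picked after their values were seen. They are the 3 whose 1 h and 2 h arrays lay above their others, and the examples of neighbours and second probe sets. The rest of those picked so are genes of other lists named for their role beyond the 2 with the smallest p. Pairing of 4 h and 0 h arrays by number rests on the correlation of their deviations, not on the labels. For 1 h or 2 h with 0 h that correlation was -0.075 to 0.00773 over all probe sets, so no pairs were assumed. Alternatives concerned centring, filters, the probe set per gene, the variance model, a replicate block and single arrays.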

Additional observations from a re-analysis of the deposited data

Results flagged for a closer look

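In groups of 4 arrays, 1 array stood far from the other 3 for 9 of the 100 groups tested (50 named genes at 4 h and at 0 h). Chance gives about 1 in 20 for genes chosen without regard to spread, a rate that does not apply here, since some of these genes, such as col-38 and col-129, were named for their large spread or change. At 4 h these were rol-6 in replicate 4 (5.59, the others 5.78 to 5.81), col-38 in replicate 1 (7.66, the others 6.79 to 6.94), col-132 in replicate 3 (5.79, the others 5.60 to 5.63) and col-163 in replicate 3 (2.28, the others 2.17 to 2.18). At 0 h they were dpy-2 in replicate 3 (5.95, the others 5.69 to 5.73), lon-3 in replicate 1 (5.97, the others 6.43 to 6.47) and col-38 in replicate 1 (7.62, the others 6.88 to 6.91). The last were col-139 in replicate 4 (8.93, the others 8.43 to 8.48) and col-129 in replicate 4 (8.49, the others 7.24 to 7.33), both at 0 h.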

How the results depend on the processing

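The median collagen change at 4 h stayed below 0 in every alternative, at -0.118 to -0.101 over 9 settings and -0.119 to -0.0859 without single arrays, with at least 115 genes below 0 where all were measured. The number called there, 2 as reported, was 4 with the mean of all probe sets of a gene and 1 once cross-hybridising probe sets were dropped, and 1 to 3 without single arrays. The gene col-158 was called in 12 of 12 fits without an array and in 9 of 9 other settings (adjusted p up to 0.0227). At 2 h the 0 calls became 1 without the dimmer 50% of probe sets (col-95), 2 with trend and robust variance and 2 with the replicate block (col-95 and col-122, limma adjusted p = 0.0218 and 0.0111). From 2 h to 4 h the block gave 1 (col-122). Over the 12 arrays the block pairs 1 h and 2 h with 0 h by number, which the main fit did not assume. The F test, with 1 call as reported, gave 3 with trend and robust variance, 3 with the block and 0 to 1 without single arrays. The cause was not tested. The median at 1 h was -0.0562 without replicate 1 of 1 h and 0.051 without replicate 2, so its sign rests on single arrays. The median at 2 h turned to 0.0262 without replicate 1 of 2 h, 0.00555 without replicate 3 of 0 h and 0.0148 with replicates 1 and 2 alone at 0 h. That of 4 h minus 2 h was -0.0649 without replicate 2 of 2 h. Over all probe sets, the 518 calls at 4 h fell to 324 without replicate 3 of 4 h, and to 344 and 345 without replicates 2 and 3 of 0 h. The 218 at 2 h became 414 with the block, 368 and 35 without replicates 1 and 2 of 2 h, and 142 without replicate 2 of 0 h. The 400 of the F test fell to 215 without replicate 3 of 4 h, 241 without replicate 2 of 4 h and 242 to 266 without any 1 array of 0 h. The 13 from 2 h to 4 h became 70 with the block and 39 with trend and robust variance, and 0 to 28 without single arrays. At 1 h the 0 became 11 without replicate 1. Of 2942 values of named genes under alternatives, 10 lost a call (col-118), 13 gained one (col-139, col-95 and col-122) and 0 reversed with a call. Beyond these and the calls of col-118 and col-139 at 4 h, the block changed no call of a named gene. Leaving out 1 of 2 arrays assumes that the lone array varies like the other groups.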
